A study of Mus musculus with 3 samples.

Results

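The mitochondrial respiratory chain genes were taken as the nuclear protein-coding genes of the GENCODE M1 annotation whose names begin with Nduf, Uqcr, Atp5, Cox4, Cox5, Cox6, Cox7 or Cox8, together with Sdha, Sdhb, Sdhc, Sdhd and Cycs. The rule found 93 of 22367 protein-coding genes, under 92 names because Ndufb8 has 2 identifiers. Grouped by name alone, they comprised 39 identifiers for complex I subunits, both of Ndufb8 among them, and 4 for complex I assembly factors. The rest were 4 subunits of complex II, 8 genes of complex III, Cycs for cytochrome c, 19 genes of complex IV and 18 of complex V. They lay on 19 chromosomes, 3 of them on X. The names alone chose the genes, so a few are not subunits of the chain. Cox4nb, a neighbour of Cox4i1, encodes a protein of the endoplasmic reticulum, and Atp5l-ps1 carries the name of a pseudogene. Neither had a peak within 50 kb.

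The study mapped NKX2-5 on chromatin by ChIP-seq, in which DNA held by an antibody is sequenced and enriched stretches are called as peaks. The tissue was heart of wild-type Parkes mice at E11.5, with no other genotype or treatment among these libraries, and the antibody was NKX-2.5 (N-19). Duplicate ChIP libraries, S1 with 4418 peaks and S4 with 5441, are described here, and the 1 library of Input DNA was left aside. The study calls S1 and S4 separate experiments, while the labels do not say whether their hearts were collected separately, and a whole heart mixes muscle with other cell types.

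The respiratory chain passes electrons from NADH (complex I) and succinate (complex II) through complex III and cytochrome c to oxygen at complex IV, and complex V uses the resulting proton gradient to make ATP. Heart muscle depends on this supply, and some complex IV subunits have a form made mainly in heart and skeletal muscle. NKX2-5 is a homeodomain factor of the cardiac lineage whose known sites carry an AAGTG core. TGACA is the core bound by MEIS factors, and CGCANGCG and AAGGTCA are cores of NRF1 and of the oestrogen-related receptors, both known regulators of respiratory chain genes.

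A peak was assigned to a promoter when its midpoint lay within 1 kb of any transcript start of the gene. Distances are from the nearest such start, which can lie inside the gene and need not be the first. The sequences of 6 places that the results turn on are shown from the mm9 assembly (NCBIM37), 5′ to 3′. Capitals mark matches to the cores AAGTG and TGACA, to AAGGTCA and to a longer form of the first core, TNAAGTG, on either strand. A core on the minus strand of the line shown appears as its reverse complement, such as CACTT for the first. The first is the 200 bases upstream of the first start of Ndufc2, the only member with overlapping promoter peaks of both libraries, at chr7:104548313-104548512, plus strand. Upstream stretches of the same length follow for the muscle isoform genes Cox6a2 (chr7:135349881-135350080, minus strand) and Cox7a1 (chr7:30968990-30969189, plus strand), and for Atp5g3 (chr2:73749384-73749583, minus strand), whose S1 peak lay on another annotated start. The last pair shows the midpoint and 100 bases on each side for peaks beyond the promoter that overlapped between the libraries, the highest-scoring one, an intergenic place 29.4 kb from Ndufs6 in S4 (chr13:73436388-73436588, plus strand) and a place 2.01 kb from Atp5b in S1, in an intron of Baz2a (chr10:127528007-127528207, plus strand).
Ndufc2 upstream: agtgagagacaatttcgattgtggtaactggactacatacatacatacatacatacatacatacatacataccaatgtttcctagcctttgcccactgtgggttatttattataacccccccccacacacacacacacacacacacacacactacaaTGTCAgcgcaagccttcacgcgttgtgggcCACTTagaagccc
Cox6a2 upstream: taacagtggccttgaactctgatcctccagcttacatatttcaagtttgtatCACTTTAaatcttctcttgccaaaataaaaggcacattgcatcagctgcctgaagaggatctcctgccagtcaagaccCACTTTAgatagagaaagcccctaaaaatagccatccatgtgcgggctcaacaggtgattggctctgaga
Cox7a1 upstream: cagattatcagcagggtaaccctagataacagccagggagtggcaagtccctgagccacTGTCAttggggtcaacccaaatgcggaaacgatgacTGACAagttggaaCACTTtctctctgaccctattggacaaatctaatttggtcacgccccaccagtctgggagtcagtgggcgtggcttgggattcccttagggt
Atp5g3 upstream: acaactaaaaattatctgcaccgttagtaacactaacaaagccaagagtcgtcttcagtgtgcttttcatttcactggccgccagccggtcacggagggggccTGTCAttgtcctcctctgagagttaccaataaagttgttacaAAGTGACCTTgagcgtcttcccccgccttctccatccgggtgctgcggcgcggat
Ndufs6 distal: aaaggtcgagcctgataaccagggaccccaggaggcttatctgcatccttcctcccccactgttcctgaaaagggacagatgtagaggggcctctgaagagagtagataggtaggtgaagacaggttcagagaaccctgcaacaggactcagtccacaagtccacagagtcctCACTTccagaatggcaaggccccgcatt
Atp5b distal: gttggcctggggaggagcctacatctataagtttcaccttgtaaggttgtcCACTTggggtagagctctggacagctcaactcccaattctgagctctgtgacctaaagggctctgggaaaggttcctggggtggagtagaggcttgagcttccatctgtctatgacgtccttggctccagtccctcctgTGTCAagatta

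Respiratory chain promoters appeared in each peak list about 3 times as often as promoters in general, yet the lists named different members. In S1, 11 of 93 members had a promoter peak (11.8%, exact Clopper-Pearson 95% interval 6.05 to 20.2), against 4.23% of all protein-coding genes. In S4, 16 of 93 did (17.2%, 10.2 to 26.4), against 5.61%. The mean share was 14.5% ± 3.8 (SD, n = 2 libraries) for members and 4.92% ± 0.974 for all genes. The ratio of both shares was 2.79 in S1 and 3.07 in S4, a mean of 2.93 ± 0.193. Intervals cover counting error only, and with 1 condition no test between groups was possible.

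Together the lists named 26 of 93 members (28%, 19.1 to 38.2) at the promoter, against 7.89% of all genes. Promoter peaks that overlapped between the libraries were found at 1 member, Ndufc2 (1.08%, 0.0272 to 5.85), against 1.85% of all genes, a ratio of 0.581. Thus 1 of the 26 members (3.85%, 0.0973 to 19.6) was named by overlapping peaks, while among all genes with a promoter peak in either list 23.5% were. Counted from S1, 1 of 11 members (9.09%, 0.23 to 41.3) had an overlapping S4 peak whose midpoint was also within 1 kb, against 43.7% of all genes. Counted from S4, 1 of 16 (6.25%, 0.158 to 30.2) had such an S1 peak, against 33.0%. The count from S1 rests on the limit of 1 kb at Ndufa13, whose overlapping S4 peak had its midpoint at 1084 bp. With any overlapping S4 peak counted, 2 of 11 member peaks of S1 (18.2%, 2.28 to 51.8) had a partner, against 45.9% of all S1 promoter peaks, a value inside that interval.

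**Figure D1:**
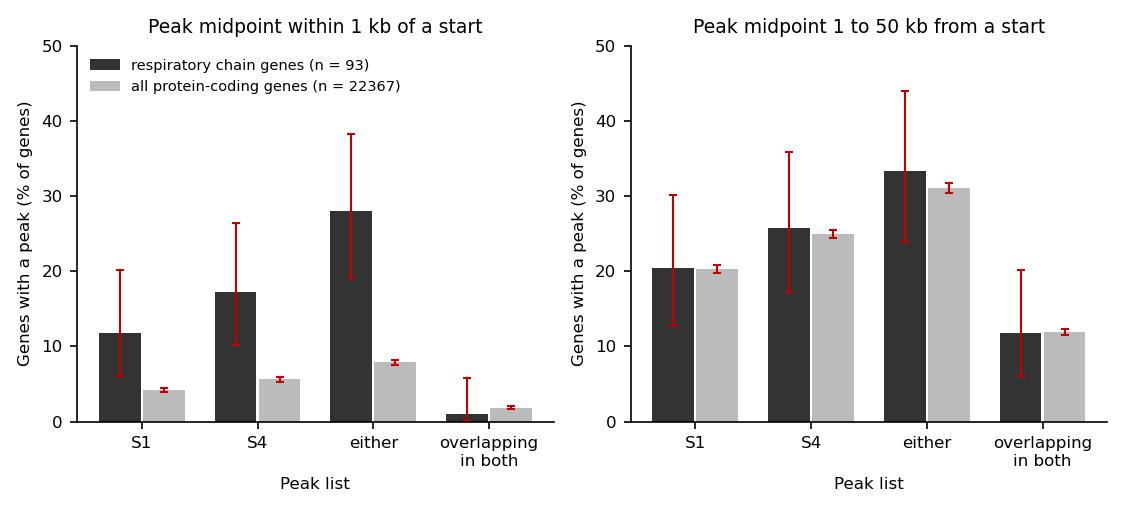
Share of genes with a peak midpoint within 1 kb (left) and 1 to 50 kb (right) of a transcript start, in percent, for 93 respiratory chain genes (dark) and 22367 protein-coding genes (light); bars start at 0 and red lines are exact 95% intervals. At the promoter the dark bars reach 11.8% in S1 and 17.2% in S4 but 1.08% for overlapping peaks, and beyond 1 kb dark and light bars are near each other.

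The scores of these promoter peaks were low. The score comes from the peak caller, and each library has its own list. The background that the score was set against is not given, so values of S1 and S4 were not taken to be on 1 scale. No listed peak scored under 140, and a gene missing from a list may have scored below that. The member peaks ranged from 140.01 to 264.25 in S1 with a median of 181, against 186 for all 849 promoter peaks of that list. In S4 they ranged from 146.34 to 384.35, again with a median of 181, against 205 for 1124 promoter peaks. Scores under 200 made up 9 of 11 member peaks in S1 (81.8%) and 10 of 16 in S4 (62.5%), against 56.9% and 47.7% of all promoter peaks. With peaks of a score of at least 200 alone, the member share fell to 4.30% ± 3.04 and the share of all genes to 2.40% ± 0.8 (SD, n = 2), a ratio of 1.67 ± 0.709, and no member had overlapping promoter peaks.

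Overlap was also counted within classes of score. Among all S1 promoter peaks under 200, 146 of 483 (30.2%) overlapped an S4 peak, while 0 of 9 member peaks did (interval 0 to 33.6%). From 200 upwards in S1, both member peaks, of Ndufc2 and Ndufa13, overlapped (2 of 2, interval 15.8 to 100%), against 244 of 366 (66.7%). In S4, 108 of 536 (20.1%) under 200 and 268 of 588 (45.6%) from 200 upwards overlapped, against 1 of 10 and 0 of 6 for members. The intervals for these S4 member peaks reached 44.5% and 45.9%, and in each of the 4 classes the interval held the value of all promoter peaks, so a difference within a score class was not detectable at these numbers.

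**Figure D2:**
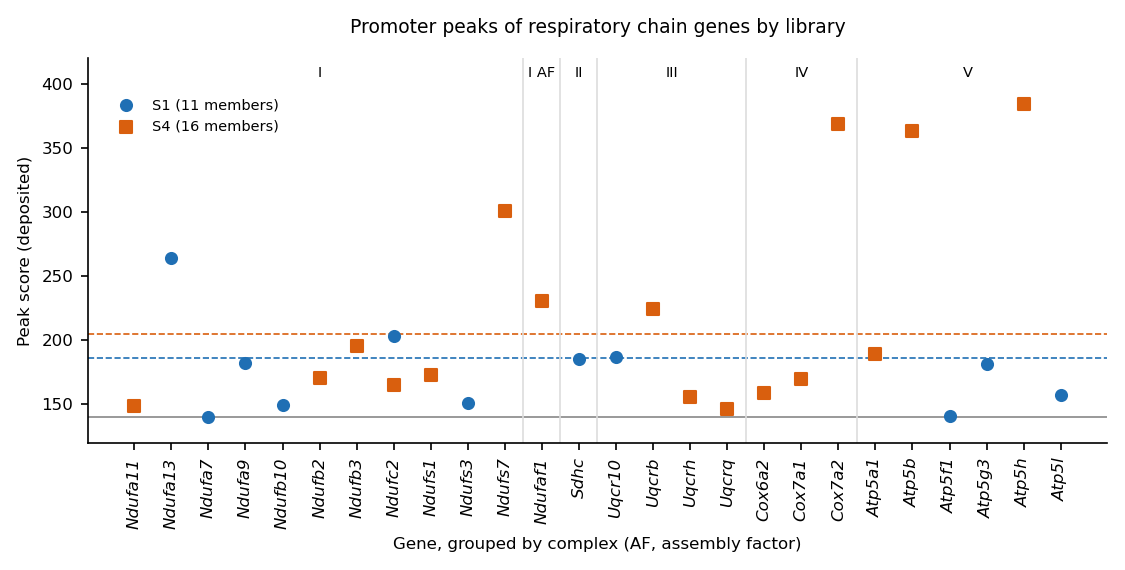
Deposited score of each promoter peak at the 26 members with one, grouped by complex; circles are S1 and squares S4, dashed lines are the median of all promoter peaks of each library, and the grey line is the lowest listed score. Ndufc2 alone carries both symbols, and most points lie under 200.

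Complex I oxidises NADH. Of 39 genes grouped by name as its subunits, 11 had a promoter peak in either list (28.2%, 15.0 to 44.9). Over all genes this share was 7.89%. Each list named 6 of these 11, with Ndufc2 in both. Ndufc2, a small accessory subunit, scored 203.06 in S1 with the midpoint 43 bp upstream of a start and 165.09 in S4 with the midpoint 14 bp downstream. The peaks spanned chr7:104548240-104548901 and chr7:104548227-104549027 and both midpoints lay in an annotated exon of Ndufc2. In the upstream sequence shown, TGACA and AAGTG lay on the minus strand from 43 and 13 bp before the first start. The midpoint distances are from another annotated start, inside the gene, so these 2 sets of positions do not share an origin. Within 100 bp of the midpoint, both cores were present in S1 and neither was in S4. Both libraries thus placed a peak on an annotated start of Ndufc2, at modest scores.

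Ndufa13, also known as GRIM-19, had the highest S1 score among member promoters, 264.25, with the midpoint 840 bp downstream of its start. An S4 peak of 162.37 overlapped it but its midpoint lay 1084 bp from the start, just outside the limit. The start nearest to both belonged to another gene, the kinase gene Tssk6. With a limit of 2 kb, or with any contact of the peak interval in place of the midpoint, Ndufa13 joined Ndufc2 and the count of overlapping promoters became 2.

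The other S1 promoter peaks of complex I lay closer to an annotated start. Ndufa9, an accessory subunit, scored 182.07 at 69 bp upstream. Ndufs3, a core subunit of the matrix arm, scored 151.21 at 10 bp, Ndufb10 scored 149.84 at 2 bp, and Ndufa7 scored 140.01 at 11 bp, all downstream. The start at Ndufb10 was internal, with its first start at chr17:24861423 and the peak at chr17:24859326-24859859. Ndufa7 stands next to the lowest score that the list holds, and a start of the ribosomal protein gene Rps28 lay within 1 kb of the peak. None of these 4 had an S4 promoter peak.

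In S4 alone, Ndufs7, a core subunit that carries an iron-sulfur cluster, had the highest score of complex I, 300.51, centred 149 bp upstream of a start. Ndufb3 followed at 195.49, Ndufs1 at 172.87, Ndufb2 at 170.76 and Ndufa11 at 148.59. The midpoint at Ndufs1, the largest iron-sulfur subunit, was 123 bp from its start and 120 bp from that of Eef1b2, a translation elongation factor gene. Of the assembly factors, Ndufaf1 had an S4 peak of 230.44 at 134 bp upstream and no S1 promoter peak, and Ndufaf2 had only an S4 peak of 184.99 at 38.9 kb, in its own intron.

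Complex II, which feeds electrons from succinate, had 1 promoter peak among 4 genes. Sdhc, a membrane anchor subunit, scored 185.26 in S1 with the midpoint 6 bp upstream of its start, and its nearest S4 peak was 39.3 kb away. Sdha, the flavoprotein, had no peak within 50 kb, the nearest lying at 86.5 kb in S1 and 115 kb in S4. Sdhd, the other anchor, had its nearest peaks at 124 kb and 75.3 kb, and Sdhb, the iron-sulfur subunit, had an S4 peak of 153.46 at 15.6 kb in its own intron. Cycs, the mobile carrier cytochrome c, was far from both lists, at 467 kb from an S1 peak and 284 kb from an S4 peak.

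In complex III, 4 of 8 genes had a promoter peak (50%, 15.7 to 84.3), against 7.89% of all genes. All 4 were small subunits, each with a peak in 1 library. Uqcr10 scored 187.12 in S1 at 24 bp upstream, within 1 kb of a start of Zmat5. Uqcrb scored 224.44 in S4 at 87 bp downstream, Uqcrh scored 155.81 at 46 bp and Uqcrq scored 146.34 at 32 bp. Another protein-coding gene began within 1 kb of each of these 4 midpoints, Zmat5, Gm10767, Lrrc41 and Gdf9 in turn, though the member's own start was the nearest.

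Complex IV, the cytochrome c oxidase, had no S1 promoter peak at any of 19 genes, which allows a share of up to 17.6%. The S1 share of all genes, 4.23%, lay inside that range. In S4, 3 of the 19 had one (15.8%, 3.38 to 39.6), against 5.61%. Cox7a2, the broadly expressed form of its subunit, scored 368.8 at 116 bp downstream of the start. Its muscle counterpart Cox7a1 scored 169.93 at 162 bp, and Cox6a2, the muscle form of another subunit, scored 158.69 at 57 bp. None of the 3 had an S1 peak at the promoter, and the nearest S1 peaks lay at 160 kb, 14.6 kb and 430 kb. The sequence upstream of Cox6a2 held TNAAGTG on the minus strand from 148 and 70 bp before the start, and that of Cox7a1 held AAGTG from 92 bp and TGACA from 141 and 105 bp. Within 100 bp of the peak midpoint, Cox6a2 had AAGTG and TGACA but not TNAAGTG. The same window at Cox7a1 had none of these cores.

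Most of the remaining isoforms of complex IV had no peak within 50 kb. Over all protein-coding genes, the median distance to the nearest peak was 180 kb in S1 and 140 kb in S4. Cox6a1, the broad counterpart of Cox6a2, was 141 kb from a peak in both lists, and Cox8b, a muscle form, 70.8 kb. Cox4i1 was 163 kb and 170 kb away, and Cox6b2, Cox7b2 and Cox8c, known as testis forms, were between 124 kb and 887 kb. Cox8a had an S1 peak of 188.23 at 11.3 kb, on the start of Otub1. Cox4i2 had peaks of 163.96 in S1 and 193.48 in S4 near Id1, 18.7 kb and 17.9 kb away, which did not overlap. Within 50 kb, 5 of 19 genes had a peak in either list (26.3%, 9.15 to 51.2), against 35.0% of all genes. None had overlapping ones (interval 0 to 17.6%), against 13.3%. Each of these intervals held the value of all genes.

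Complex V, the ATP synthase, had promoter peaks at 6 of 18 genes (33.3%, 13.3 to 59.0), against 7.89% of all genes. Each list named 3 of the 6. In S1 they were Atp5g3, for the ring-forming subunit c, with 181.23 at 11 bp, Atp5l with 157.55 at 7 bp and Atp5f1 with 140.65 at 103 bp, all downstream. In S4 they were Atp5h, for subunit d of the stalk, with 384.35 at 532 bp downstream, Atp5b, for the catalytic beta subunit, with 362.98 at 101 bp upstream, and Atp5a1, for the alpha subunit, with 189.54 at 23 bp upstream. The start at Atp5h was an internal one, with the first start of this gene at chr11:115281276 and the peak at chr11:115277308-115278293. The S4 scores of Atp5h and Atp5b ranked 1116 and 1223 of 5441, and neither had an S1 partner. Upstream of Atp5g3 an AAGTG from 55 bp before the first start ran into AAGGTCA on the other strand from 52 bp. The 11 bp of its peak is from another annotated start, inside the gene. Within 100 bp of the peak midpoint neither of these cores was present, while CGCANGCG was.

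The position of member peaks was set beside that of all promoter peaks within each library. The lists shared only Ndufc2 among member promoters, so the values of S1 and S4 describe mostly different members. In S1, 8 of 11 member midpoints (72.7%) lay within 50 bp of the start, against 22.0% of all S1 promoter peaks, and the median distance was 11 bp against 157 bp. In S4, 4 of 16 (25%) lay within 50 bp, against 23.0%, with medians of 108 bp and 142 bp. Midpoints lay downstream in 7 of 11 (63.6%) and 10 of 16 (62.5%), against 44.6% and 39.7% of all promoter peaks. Member peaks had a median width of 555 bp in S1 and 850 bp in S4, against 618 bp and 819 bp for all promoter peaks.

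**Figure D3:**
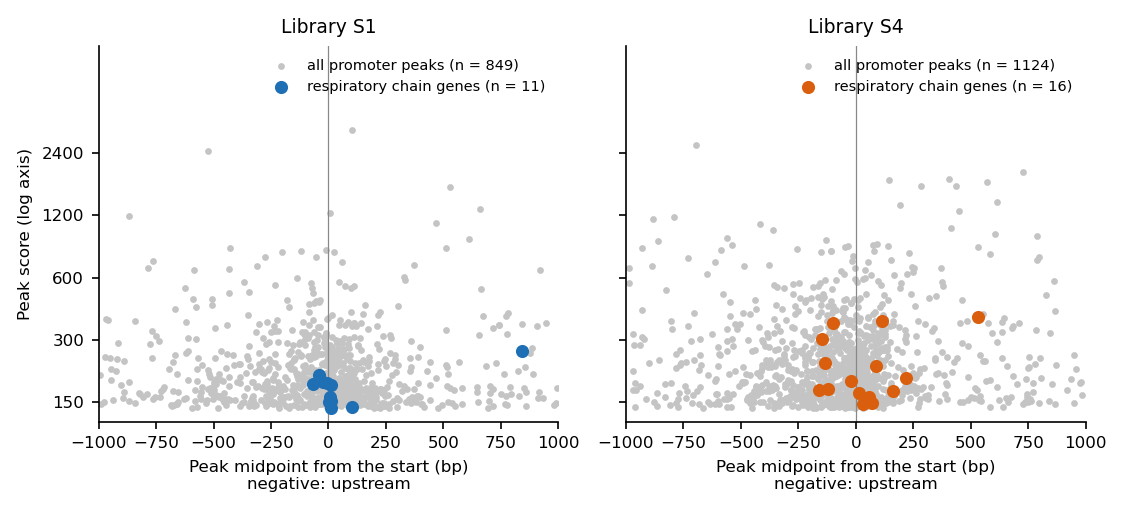
Score (log axis) against the distance of the midpoint from the start in bp, for all promoter peaks (grey, measured from the nearest protein-coding start) and for member peaks (coloured, measured from the member's nearest start), in S1 (left) and S4 (right). The S1 member peaks gather at 0 with Ndufa13 apart at 840 bp, and those of S4 spread from 162 bp upstream to 532 bp downstream.

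Beyond the promoter the shares of members were close to those of all genes. A midpoint 1 to 50 kb from a start was found for 19 of 93 members in S1 (20.4%, 12.8 to 30.1) against 20.3% of all genes, and for 24 in S4 (25.8%, 17.3 to 35.9) against 24.9%. Overlapping peaks at that distance were found for 11 members (11.8%, 6.05 to 20.2), against 11.9%. With the promoter included, 27 members had a peak within 50 kb in S1 (29.0%, 20.1 to 39.4) against 22.8%, and 36 in S4 (38.7%, 28.8 to 49.4) against 28.4%. The ratios were 1.27 and 1.36, a mean of 1.32 ± 0.0652 (SD, n = 2). Either list reached 46 members (49.5%) against 35.0% of all genes, and overlapping peaks reached 12 (12.9%, 6.85 to 21.5) against 13.3%. The other 47 members had no peak within 50 kb in either list.

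**Figure D4:**
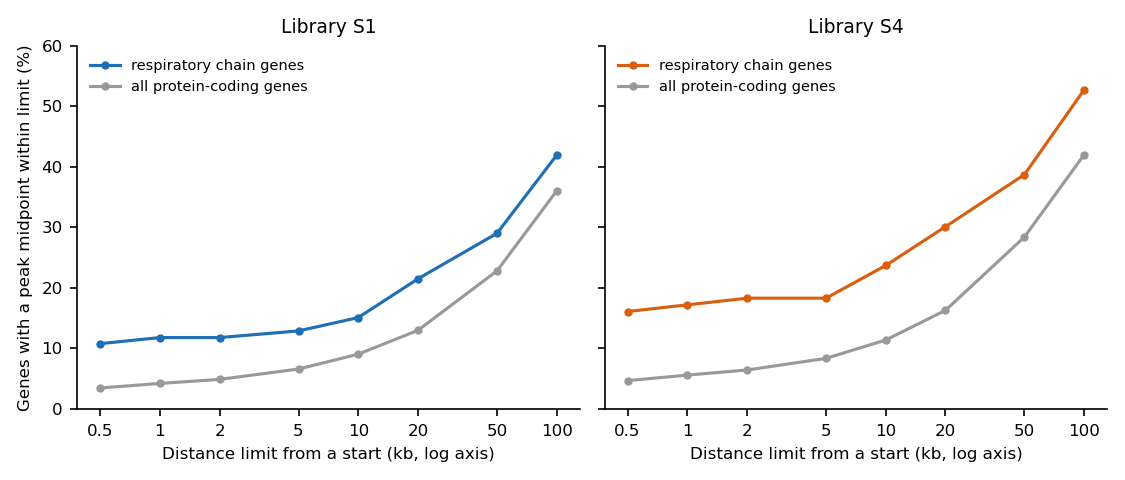
Percent of genes with a peak midpoint within a given distance of a transcript start (log axis, kb), for 93 respiratory chain genes (coloured) and 22367 protein-coding genes (grey), in S1 (left) and S4 (right). The gap between the lines is present at 0.5 kb, with 10.8% against 3.48% in S1 and 16.1% against 4.69% in S4.

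Most peaks 1 to 50 kb from a member were nearer to another gene. Of 22 such peaks in S1 and 34 in S4, the member's start was the nearest protein-coding start for 4 and 9. This count was not made for peaks around all genes, so it is not a trait of members. A median of 3 other protein-coding genes began within 50 kb of a member, against 2 for all genes. Among the distal peaks closest to a member, the highest scores were near Ndufs6, for a zinc-binding accessory subunit of complex I. Its intergenic peak at chr13:73435731-73436920 scored 1421.79 in S1 (rank 67 of 4418), and the overlapping S4 peak at chr13:73435944-73437032 scored 1457.79 (rank 95 of 5441). The midpoints lay 29.6 kb and 29.4 kb beyond the Ndufs6 start, which was the nearest. These scores exceeded that of every member promoter peak in the same list.

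Several other high scores stood nearer to neighbours. Atp5b had overlapping peaks of 650.18 and 499.19 in S1 and S4 at 2.01 kb and 2.02 kb, but a start of Baz2a, a chromatin remodelling gene, was 0.584 kb and 0.578 kb away. Uqcr11 had 570.25 and 861.1 at 27.2 kb and 27.4 kb, beside the start of the transcription factor gene Tcf3. Ndufa7 had 431.16 and 748.16 at 19.6 kb, with Kank3 nearer.

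Core subunit gene Ndufs8 had overlapping peaks of 469.85 in S1 and 285.05 in S4 at 18.9 kb and 19.0 kb, both in an exon of Chka. Atp5d, for subunit delta, had 578.59 and 281.69 at 16.8 kb and 16.6 kb, nearer to Cirbp. Ndufb4 differed from these, since it was the nearest gene to a pair of intergenic places about 30.3 kb and 36.9 kb upstream, which scored 147.25 and 169.61 in S1 and 248.28 and 233.69 in S4. The other members with overlapping distal peaks were Ndufa13, Ndufab1, Atp5j2 and Atp5sl, where the lower score of each pair was between 140.6 and 168.24. A distal S4 peak at 3.88 kb from Atp5a1 scored 725.3 while the nearest S1 peak was 1730 kb from that gene, and an S1 peak at 39.2 kb from Atp5l scored 758.41 at the start of Mll1, with no S4 partner.

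Properties of the promoters were compared with those of all genes, over 250 bp before to 50 bp after the first start. The ratio of observed to expected CpG had a median of 0.785 in members and 0.534 in all genes, and 0.772 in all genes with a promoter peak. Another protein-coding gene began within 1 kb of 32 of 93 members and of 2923 of all 22367 genes. Among genes in the highest of 4 equal groups of CpG ratio, 16 of 46 members (34.8%) had a promoter peak in either list, against 13.6% of all genes in that group, and 0 of 46 had overlapping ones, against 3.15%. In the next group, 4 of 28 (14.3%) had a promoter peak in either list, against 10.8%. In the group below that, 4 of 13 (30.8%) did, against 5.37%, and in the lowest group 2 of 6 (33.3%), against 1.77%. The share of all genes rose with the CpG ratio from group to group, and that of members did not. Of members with another start within 1 kb, 13 of 32 (40.6%) had a promoter peak in either list, against 16.6% of all such genes, and of those without, 13 of 61 (21.3%), against 6.58%. In each of these groups the share of members in either list was above that of all genes, by the least in the group second from the top by CpG ratio. In that group it was 7.14% in each library, against 5.88% of all genes in S1 and 7.48% in S4. In the top group it was 13.0% against 7.05% in S1 and 21.7% against 9.87% in S4. Overlapping promoter peaks were at 0 of 28 members in the second group from the top, against 2.45%, and at 1 of 13 in the next, against 1.31%. The lowest group had 0 of 6, against 0.5%. The part of neighbouring starts in the result was not tested.

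The AAGTG core was about as frequent in member promoters, 48.4% (37.9 to 59.0), as in all promoters of the same 300 bp, 45.8%. TNAAGTG was in 12.9% against 11.4%, and TGACA in 44.1% against 42.2%. In the promoters of the 26 members with a promoter peak, AAGTG was in 16 (61.5%, 40.6 to 79.8), against 46.1% of all genes with a promoter peak, and TNAAGTG in 6 (23.1%, 8.97 to 43.6), against 9.92%. The cores of other factors, over all 93 members, differed more from all promoters. CGCANGCG was in 29.0% (20.1 to 39.4) against 10.4% and AAGGTCA in 9.68% (4.52 to 17.6) against 3.92%. CCGGAAG, a core of ETS factors, was in 19.4% (11.9 to 28.9) against 10.8%. AAGATGGC, a core of YY1, was in 11.8% (6.05 to 20.2) against 3.3%. CGCANGCG and CCGGAAG contain CG, and the part of the higher CpG ratio of members in these shares was not tested. These are matches of letters on either strand, and matches to different cores can overlap.

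Within 100 bp of the midpoints, AAGTG was found in 4 of 11 member promoter peaks of S1 (36.4%) and 5 of 16 of S4 (31.2%). It was in 42.4% and 41.4% of all promoter peaks, and in 64.4% and 62.1% of the peaks elsewhere. TNAAGTG was in 0 of 11 (interval 0 to 28.5%) and 3 of 16 (18.8%), against 15.2% and 13.8% of all promoter peaks, and TGACA in 3 of 11 (27.3%) and 5 of 16 (31.2%), against 33.5% and 31.6%. CGCANGCG was in 3 of 11 and 1 of 16, against 6.48% and 7.92% of all promoter peaks. Around the distal peaks of members AAGTG was in 10 of 22 in S1 (45.5%) and 24 of 34 in S4 (70.6%).

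Genes of the wider pathway were looked at beside the members, 55 genes for assembly of complexes III and IV, the tricarboxylic acid cycle, regulators and mitochondrial DNA factors, and carriers. Promoter peaks were at 6 in S1 (10.9%, 4.11 to 22.2) and 9 in S4 (16.4%, 7.77 to 28.8), shares near those of the members. Overlapping promoter peaks were at 2 of the 13 genes with one in either list, against 23.5% of all such genes. Over the 55 genes this was 3.64% (0.443 to 12.5), against 1.85% of all genes. Polg2, an accessory subunit of the mitochondrial DNA polymerase, scored 204.68 in S1 and 261.96 in S4. Slc25a4, the adenine nucleotide carrier of heart and muscle, scored 159.83 and 279.47. Ppargc1a, a coactivator of mitochondrial genes, scored 302.74 at its promoter in S1, and the nearest S4 midpoint lay 1.04 kb away.

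Heart muscle genes served as a check of the label. The promoters of the natriuretic peptide gene Nppa and the contractile genes Myh6 and Actc1 had peaks in both lists, with scores, in that order, of 366.51, 206.41 and 1639.69 in S1 and 805.87, 683.71 and 176.99 in S4. Tnnt2, for cardiac troponin T, had no promoter peak and scored 621.54 at 4.74 kb in S1 and 537.28 at 3.03 kb in S4. The member promoters with the highest scores were Ndufa13 with 264.25 in S1, nearer to Tssk6, and Atp5h with 384.35 in S4, at an internal start. Of those 3 promoter scores, only that of Myh6 in S1 and that of Actc1 in S4 were lower. The best scores within 50 kb of the heart muscle genes, Tnnt2 included, were higher, from 612.85 to 1639.69 in S1 and from 992.3 to 3100 in S4.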

How the data were processed

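Hearts at E11.5 were profiled by NKX2-5 ChIP-seq. According to the methods and the submitters' processing notes, Bowtie placed the reads on mm9 and MACS 1.4 called the peaks. Settings, and whether the Input served as control, are not given in the sources used here. Each ChIP library has its own list, deposited by the authors without pooling, with start and end positions and a score, which from its values is the caller's negative log10 p-value on an enlarged scale, starting at 140.01. Scores were not scaled between libraries. The lists hold no read numbers, so the depth is unknown.

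Peak midpoints were assigned to every GENCODE M1 protein-coding gene with a transcript start within 1 kb (promoter) or 50 kb, and peaks overlapping by at least 1 bp were counted as shared. A gene counted as overlapping in both lists when a peak assigned to it in one overlapped a peak assigned to it in the other. Shares have exact Clopper-Pearson intervals at 0.95. Calculations used Python 3.11.15, pandas 2.3.3, numpy 2.4.6, scipy 1.17.1 and matplotlib 3.10.9. The assignment was tested on simulated data. Members and lists were chosen with earlier results of these data known. Of the wider pathway lists, Cox14, Cox20 and Twinkle matched no gene name. Named were members with promoter peaks in both lists, the 5 highest scores among those in 1 list, the 5 members without a promoter peak whose lower score of both lists within 50 kb was highest, Cycs, complex II, the isoforms, and wider pathway genes with promoter peaks in both lists. The remaining named genes were added after their values were seen. Alternatives were other distance limits, the peak interval, a score of at least 200, other transcript starts, the nearest gene alone, overlap of 50%, and fewer members.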

Additional observations from a re-analysis of the deposited data

How the results depend on the processing

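The share of members with a promoter peak stayed above that of all protein-coding genes under every alternative run, with a ratio of 1.67 to 3.26. A score of at least 200 moved most values: the promoter share of members to 4.30% and of all genes to 2.40%, the ratio to 1.67, the median score to 283, the share within 50 kb to 17.2% for members and 15.1% for all genes with a ratio of 1.13, and the overlapping counts to 0 at promoters and 6 within 50 kb. Promoter limits of 500 bp and 2 kb gave ratios of 3.26 and 2.62, and the most upstream start alone gave 3.19. The count of overlapping promoters became 2 with the limit of 2 kb and with peak intervals. The mean median score of 181 went to 171 with 500 bp and to 177 with 2 kb, peak intervals, the most upstream start, starts of protein-coding transcripts or no assembly factors, moves that exceed the SD only because both libraries had nearly the same median.

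Within 50 kb, a limit of 20 kb gave shares of 25.8% and 14.7% for members and all genes (ratio 1.75) and 6 overlapping members, and 100 kb gave 47.3% and 39.0% (ratio 1.21) and 22. The nearest gene alone gave 18.3% and 12% (ratio 1.51) and 4, and the most upstream start gave a ratio of 1.46. With 1 library left out, the promoter share ranged from 11.8% to 17.2% and its ratio from 2.79 to 3.07, and the share within 50 kb from 29.0% to 38.7% with a ratio of 1.27 to 1.36. Leaving out Cox4nb, Atp5l-ps1 and Ndufb8, an alternative chosen after seeing the data, gave a promoter ratio of 3.06. No paired analysis was possible because there was 1 condition. The limits are 2 libraries, a score floor that hides weaker peaks, and unknown depth.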
